A study of Mus musculus with 24 samples.

Results

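Classical non-homologous end joining is the route by which most mammalian cells rejoin broken DNA ends without a homologous template. Its 9 core genes were followed here by name: Xrcc5, Xrcc6, Prkdc, Dclre1c, Poll, Polm, Xrcc4, Lig4 and Nhej1. All 9 were present among the 14106 genes of the deposited RNA-seq table, with 1 row each, and all 9 passed the filter on low counts that left 12024 genes for testing.

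As background, the Ku heterodimer (Ku80, encoded by Xrcc5, and Ku70, encoded by Xrcc6) encircles a broken end and recruits DNA-PKcs, the kinase encoded by Prkdc. DNA-PKcs activates the nuclease Artemis (Dclre1c), the polymerases lambda (Poll) and mu (Polm) fill gaps, and DNA ligase IV (Lig4) seals the ends together with its partner XRCC4 and the bridging protein XLF (Nhej1). B cells use the pathway to join antigen receptor gene segments and, when activated, to join switch regions during immunoglobulin class switching.

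The cells were mouse splenic B lymphocytes cultured with interleukin 4 and lipopolysaccharide, 28 h before and 32 h during treatment with 2 µM 4-hydroxytamoxifen, 60 h of activation in all. The 3 Spt5-depleted libraries came from Supt5hFl/- Rosa26ERT2-cre/+ cells, in which the gene for the elongation factor Spt5 is floxed on one chromosome and null on the other, with a tamoxifen-inducible Cre recombinase at the Rosa26 locus. The 3 control libraries, called WT in the labels, came from Rosa26ERT2-cre/+ cells given the same drug, so both groups carried the recombinase and met the drug, and the null allele was in the depleted group alone. The 18 samples of other assays were not analysed here.

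Library totals were 23340978 to 25649611 counts in WT and 17306549 to 21441575 in Spt5-depleted libraries. Supt5, the targeted gene, had 3512 to 4666 counts in WT and 189 to 314 in depleted libraries. Cd79b, a chain of the B cell receptor complex, had 34753 to 42236 counts in WT and 34344 to 38513 in depleted libraries. Of 6 tested macrophage and monocyte markers 4 were called higher in the fit described below. So were 2 of 3 dendritic cell markers and 1 of 2 natural killer cell markers, where 31.8% of all tested genes were called higher. Of 7 T cell markers 0 were called, where 62.4% of all tested genes were called in either direction. With so few genes per list, these counts are not read as a gain of any cell type. The macrophage and monocyte sum was 22.4 to 30.5 CPM (counts scaled to a common library total) in WT and 29.1, 66.6 and 52.9 in depleted replicates 1, 2 and 3. Csf1r, which defines those cells, had 6 to 13 counts in WT and 9, 35 and 31 in depleted replicates 1, 2 and 3. The dendritic cell sum was 81.0 to 94.0 CPM in WT and 101 to 103 CPM in depleted libraries. The natural killer cell sum was 2.08 to 3.16 and 2.47 to 3.07 CPM, with overlap. All these sums use library totals alone, without the TMM factors of the main fit (0.943 to 0.949 in WT, 1.04 to 1.08 in depleted libraries). Those factors raise WT values and lower depleted values, so the gap in the dendritic cell sum is not read as a rise. Of the dendritic cell genes Xcr1 had 17 to 26 counts in WT and 109 to 136 in depleted libraries, and Zbtb46 had 119 to 126 and 131 to 228. Flt3 had 1889 to 2122 and 1506 to 1859, and Itgax had 0 to 4 in any library. These counts are not scaled, and the depleted library totals were lower, so the ranges of Flt3 do not show a fall. Of the 3 tested dendritic cell markers 0 were called lower, where 30.6% of all tested genes were. The part of these markers in the results below was not tested. The summed counts of Xist RNA were 46341 for WT and 86 for depleted cells, while those of Ddx3y from the Y chromosome were 1 and 2569, so genotype and sex-linked RNA differ together and cannot be told apart. The labels do not say that the libraries of a group are from separate animals, so the p-values cover the spread between these libraries alone, which may be technical.

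The upstream sequences are shown because the Ku genes moved in opposite directions and Nhej1 fell the most. They are from the RefSeq table of build GRCm38.p6, which is not the build of the counts (mm9), and they end before the start site that the table uses. For Xrcc6 the annotation also holds an earlier start, so its stretch lies inside the annotated gene. Capitals mark matches, on either strand, to any of the 6 motifs searched.
Xrcc5, chr1:72307221-72307416, plus strand: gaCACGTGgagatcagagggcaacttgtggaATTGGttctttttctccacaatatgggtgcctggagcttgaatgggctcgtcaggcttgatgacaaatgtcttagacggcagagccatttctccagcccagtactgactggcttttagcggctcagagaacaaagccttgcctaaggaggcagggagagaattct
Xrcc6, chr15:82016269-82016368, plus strand: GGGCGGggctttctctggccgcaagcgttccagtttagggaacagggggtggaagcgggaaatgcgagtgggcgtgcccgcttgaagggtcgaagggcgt
Nhej1, chr1:75125227-75125326, minus strand: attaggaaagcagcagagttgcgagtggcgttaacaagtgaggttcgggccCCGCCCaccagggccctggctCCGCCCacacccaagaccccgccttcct

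Motifs were searched on both strands in windows of 300 bases that run from 250 before to 50 after each start. The first was the TATA box, spelled TATAAA, and the second was the GC box, spelled GGGCGG. The third was the CCAAT box under that spelling, and the fourth was the E-box with the letters CACGTG. The others were the core of the site known for NRF1, taken as GCGCATGC, and that known for ETS factors, taken as CCGGAAG. Entries were found for 7 members, all but Prkdc and Poll, and Lig4 has 2 start sites. TATAAA was in 0 of the members' windows, against 13.6% of all 32851 windows in the table. GGGCGG was in those of Xrcc6, Nhej1, Xrcc4, Polm, Dclre1c and 1 of the 2 Lig4 starts, against 35.7% of all windows. The Xrcc5 window held no GGGCGG and was the only member window with CACGTG, which 7.15% of all windows hold. GCGCATGC was in the Xrcc5 window and at the other Lig4 start, where 2 matches overlap, against 2.71% of all windows. CCAAT was in the windows of Xrcc5, Xrcc6, Dclre1c and Polm, against 37.4% of all windows. CCGGAAG was in those of Dclre1c, Xrcc4 and both Lig4 starts, against 8.86% of all windows. A match is a run of letters, not a measured binding site.

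Of the 9 end-joining genes 4 were higher in Spt5-depleted cells (Xrcc5, Lig4, Prkdc and Poll), 3 were lower (Nhej1, Xrcc6 and Xrcc4), and Dclre1c and Polm were not called. The test was edgeR's quasi-likelihood F test with p-values adjusted by Benjamini-Hochberg over all 12024 genes and a threshold of 0.05. Of all tested genes 62.4% were called, 31.8% higher and 30.6% lower, so 7 of 9 (77.8%) is near the background share and is not read as a result about the pathway. The groups did not overlap for the same count of members, 7, where 67.5% of all tested genes did not overlap. The median log2 fold change was 0.01 over the members and 0.005 over all tested genes, and the median size of change regardless of sign was 0.51 and 0.44. Levels below are TMM-normalised CPM, which are not per length, so they compare a gene with itself between libraries and not with another gene. In such bulk RNA, fewer cells of a type and less RNA per cell cannot be told apart.

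**Figure D1:**
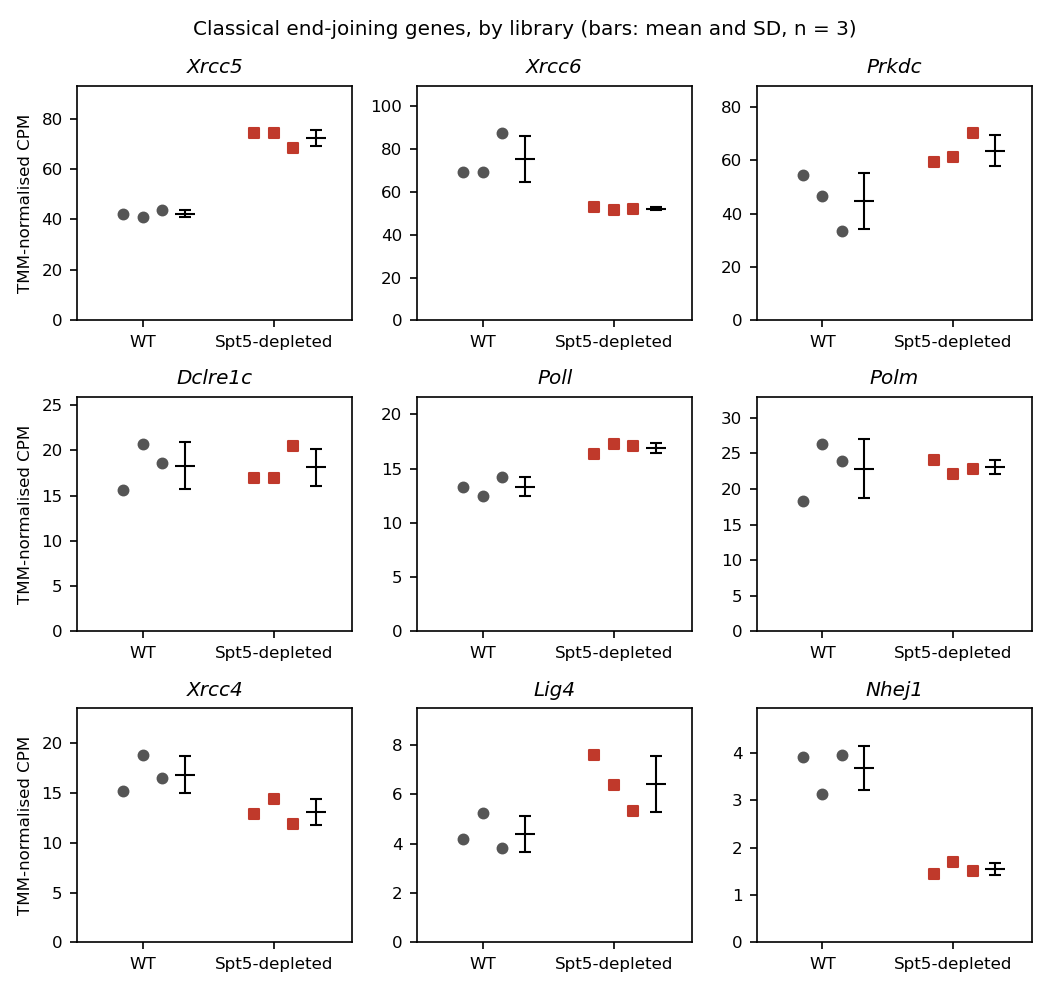
TMM-normalised CPM of the 9 end-joining genes in each WT (circles) and Spt5-depleted (squares) library, on linear axes from 0, with the mean and SD of 3 libraries beside the points. The groups are apart for 7 genes and overlap for Dclre1c and Polm.

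The subunits of the Ku dimer changed in opposite directions. Xrcc5 was at 42.3, 41.1 and 43.6 CPM in the WT libraries and at 74.1, 74.3 and 68.4 CPM in the depleted libraries. Every depleted library was above every WT library, and the spread within each group was small beside the gap. The level rose 1.71-fold (log2 fold change 0.77 ± 0.09 SE, edgeR adjusted p = 2.38e-06). Xrcc6 was at 69.2, 69.1 and 87.4 CPM in WT and at 53.0, 51.4 and 52.1 CPM in depleted libraries. WT replicate 3 was the highest, and all WT libraries were above all depleted libraries. The level fell to 0.693 of WT (log2 fold change -0.53 ± 0.10 SE, edgeR adjusted p = 0.000362).

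Within a library the ratio of Xrcc5 to Xrcc6 counts does not depend on how libraries are scaled. It was 0.611, 0.594 and 0.499 in WT and 1.40, 1.44 and 1.31 in depleted libraries, so Xrcc5 had fewer counts than Xrcc6 in each WT library and more in each depleted library. The ratio was 2.45-fold higher after depletion (log2 difference 1.29, from -0.82 ± 0.16 to 0.47 ± 0.07, SD, n = 3 each). An exact two-sided permutation test over libraries gave p = 0.1, the smallest that 3 against 3 allows, and 0.167 after adjustment over the 5 ratios computed. The ratio is of read counts and not of molecules, since the genes differ in transcript length.

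Prkdc, for the kinase that Ku recruits, was at 54.2, 46.5 and 33.5 CPM in WT and at 59.5, 61.1 and 70.2 CPM in depleted libraries. The groups did not overlap, although the highest WT and the lowest depleted library were close. It rose 1.42-fold (log2 fold change 0.51 ± 0.15 SE, edgeR adjusted p = 0.0126). Leaving out single libraries gave log2 fold changes from 0.33 to 0.67, and the call was lost without Spt5-depleted replicate 3 (0.43, edgeR adjusted p = 0.0577).

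Dclre1c, for the nuclease Artemis, was at 15.6, 20.7 and 18.6 CPM in WT and at 17.0, 16.9 and 20.5 CPM in depleted libraries. The groups overlapped throughout. The log2 fold change was -0.01 with a 95% interval from -0.28 to 0.25, so the interval leaves room for a level from 0.823 to 1.19 of WT (edgeR adjusted p = 0.935). The row carries the suffix IMP_OVL, which 2005 rows of the table carry and which may mark overlap with another gene. Suv39h2, a histone methyltransferase gene that overlaps Dclre1c in the RefSeq annotation, carries the same suffix and had a log2 fold change of -0.16 (edgeR adjusted p = 0.151). The ratio of Dclre1c to Prkdc counts was 0.288, 0.446 and 0.556 in WT and 0.286, 0.277 and 0.292 in depleted libraries, and the groups overlapped (log2 difference -0.54, exact two-sided permutation p = 0.2, adjusted p = 0.2).

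Of the gap-filling polymerase genes Poll rose and Polm was not called. Poll was at 13.4, 12.5 and 14.2 CPM in WT and at 16.4, 17.3 and 17.1 CPM in depleted libraries. All depleted libraries were above all WT libraries, and the level rose 1.27-fold (log2 fold change 0.34 ± 0.11 SE, edgeR adjusted p = 0.0129). Without WT replicate 2 the call was lost narrowly (log2 fold change 0.29, adjusted p = 0.0507). Polm, for the polymerase that can join ends with little base pairing, was at 18.2, 26.3 and 24.0 CPM in WT and at 24.1, 22.1 and 22.8 CPM in depleted libraries. The depleted libraries lay inside the WT range, and the log2 fold change was 0.01 with a 95% interval from -0.26 to 0.28 (edgeR adjusted p = 0.947). The ratio of Poll to Polm was 0.732, 0.474 and 0.595 in WT and 0.680, 0.782 and 0.748 in depleted libraries, with overlap (log2 difference 0.32, exact two-sided permutation p = 0.2, adjusted p = 0.2). With 3 against 3 libraries this test cannot go below 0.1, so it could not decide whether the changes of Poll and Polm differed.

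Of the 3 genes of the ligation step, Lig4 rose while Xrcc4 and Nhej1 fell. Lig4 was at 4.17, 5.23 and 3.83 CPM in WT, from 93 to 115 counts, and at 7.59, 6.37 and 5.32 CPM in depleted libraries, from 123 to 136 counts. The groups were apart by a narrow margin, between WT replicate 2 and depleted replicate 3. The level rose 1.45-fold (log2 fold change 0.54 ± 0.18 SE, edgeR adjusted p = 0.0181), and the call was lost without WT replicate 3 (log2 fold change 0.44, adjusted p = 0.0622) or Spt5-depleted replicate 1 (0.41, adjusted p = 0.101).

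Xrcc4, for the scaffold that holds and stabilises ligase IV, was at 15.2, 18.8 and 16.5 CPM in WT and at 12.9, 14.4 and 11.9 CPM in depleted libraries. The lowest WT library was slightly above the highest depleted library. The level fell to 0.777 of WT (log2 fold change -0.36 ± 0.12 SE, edgeR adjusted p = 0.0174). This was the least stable of the 7 calls by count of settings that lose it: it was lost without WT replicate 2 (log2 fold change -0.28, adjusted p = 0.0763), Spt5-depleted replicate 1 (-0.36, adjusted p = 0.0544) or Spt5-depleted replicate 3 (-0.29, adjusted p = 0.0912). It was also lost when libraries were scaled by their totals alone (-0.20, adjusted p = 0.154).

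Nhej1, for XLF, had the fewest counts and the largest change of the 9. Its counts were 93, 69 and 96 for WT and 26, 36 and 35 for depleted libraries, which is 3.92, 3.14 and 3.95 CPM against 1.45, 1.69 and 1.51 CPM. The lowest WT library was well above the highest depleted library. The level fell to 0.424 of WT, with a 95% interval from 0.309 to 0.581 (log2 fold change -1.24 ± 0.21 SE, edgeR adjusted p = 0.000145). Xrcc5 and Nhej1 were the 2 members whose change exceeded 1.5-fold.

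The partners of the ligation complex shifted against each other in the counts of each library. Xrcc4 had 3.62, 3.59 and 4.29 counts for each Lig4 count in WT and 1.70, 2.26 and 2.23 in depleted libraries. The ratio was lower in every depleted library (log2 difference -0.90, from 1.93 ± 0.15 to 1.03 ± 0.23, SD, n = 3 each). Xrcc4 had 3.86, 5.96 and 4.16 counts for each Nhej1 count in WT and 8.74, 8.45 and 7.76 in depleted libraries, higher in every one (log2 difference 0.86, from 2.19 ± 0.34 to 3.05 ± 0.09, SD, n = 3 each). For both ratios the exact two-sided permutation test gave p = 0.1, the smallest possible, and 0.167 adjusted over the 5 ratios.

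**Figure D2:**
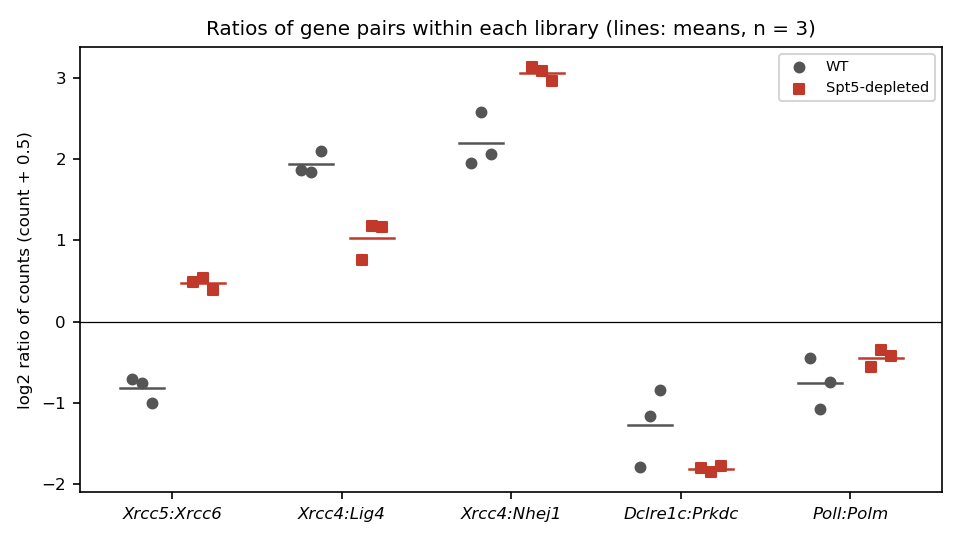
Log2 ratio of read counts (count + 0.5) of 5 pairs of end-joining genes within each library, WT as circles and Spt5-depleted as squares, with a line at each mean of 3. Xrcc5:Xrcc6 goes from below 0 in all WT libraries to above 0 in all depleted libraries, and the groups overlap for Dclre1c:Prkdc and Poll:Polm.

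**Figure D3:**
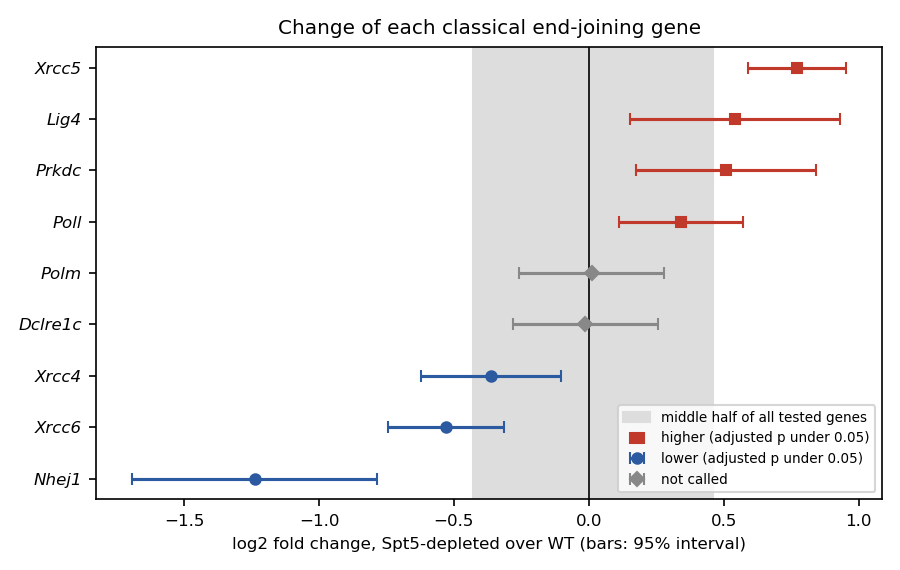
Log2 fold change of each end-joining gene (Spt5-depleted over WT) with its 95% interval from the edgeR fit, over a grey band from the first to the third quartile of all 12024 tested genes (-0.43 to 0.46). Xrcc5, Lig4, Prkdc, Xrcc6 and Nhej1 have estimates outside the band, and the intervals of Xrcc5 and Nhej1 lie wholly outside it.

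The part of the sex-linked difference in these changes was not tested. In the authors' deposited table the same 7 genes have an adjusted p under 0.05, where 52.0% of its 14106 genes do. Their log2 fold changes there are 0.76 for Xrcc5, 0.53 for Lig4, 0.50 for Prkdc, 0.33 for Poll, -0.37 for Xrcc4, -0.54 for Xrcc6 and -1.25 for Nhej1.

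Factors that assist the core pathway also went both ways. Of 11 listed accessory genes 7 were tested, of which 2 rose, 1 fell and 4 were not called (median log2 fold change -0.03, against 0.005 for all tested genes, of which 62.4% were called). Cyren, a small inhibitor and modulator of end joining whose row is named 3110062M04Rik, rose by 1.26 on the log2 scale, with 3.47 ± 0.61 CPM in WT and 8.33 ± 1.43 CPM after depletion (SD, n = 3 each; edgeR adjusted p = 3.15e-05), and its row carries the IMP_OVL suffix. Wrn, the Werner helicase and exonuclease, rose (log2 fold change 0.51, edgeR adjusted p = 0.000505). Tdp1, which removes blocking groups from ends, fell (-0.46, edgeR adjusted p = 0.000199). Dntt, the template-independent polymerase of early lymphocytes, had 0 to 4 counts in any library and was not tested.

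Of 10 genes of alternative end joining, the backup route that uses short matching sequences, 1 rose, 3 fell and 6 were not called (median log2 fold change -0.13), where 31.8% of all tested genes were higher and 30.6% lower. Lig1, the replicative ligase, fell by 0.57 on the log2 scale, with 226 ± 20.3 CPM in WT and 153 ± 6.11 CPM after depletion (SD, n = 3 each; edgeR adjusted p = 6.83e-05). Rbbp8, for the resection factor CtIP, fell (-0.48, edgeR adjusted p = 0.000263), and so did Parp1, a sensor of DNA breaks (-0.44, edgeR adjusted p = 0.000427). Ercc4, a flap endonuclease subunit, was the member that rose (0.34, edgeR adjusted p = 0.0156), and without WT replicate 2 0 genes of the list were called higher. Polq, for the polymerase theta that defines the route, was at 48.6 ± 4.25 and 42.7 ± 4.53 CPM (SD, n = 3 each; edgeR adjusted p = 0.131).

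Relatives of the members by protein family are a way to see whether the change of a member was shared by its family. Of 12 listed relatives 10 were tested, of which 1 rose, 2 fell and 7 were not called (median log2 fold change 0.005), where 62.4% of all tested genes were called. The number that rose was 3 without WT replicate 1 and 2 without WT replicate 2 or Spt5-depleted replicate 1, and the number that fell was 1 without WT replicate 3 or any 1 of the depleted libraries. Among DNA ligases, Lig4 rose, Lig1 fell and Lig3 was not called (0.14, edgeR adjusted p = 0.206). Among family X polymerases, Poll rose, Polm was not called and Polb, the base excision repair polymerase, fell (-0.26, edgeR adjusted p = 0.0417). Among SNM1 nucleases, Dclre1c was not called, Dclre1b, which acts at telomeres, rose (0.81, edgeR adjusted p = 5.79e-06), and Dclre1a was not called (0.34, edgeR adjusted p = 0.0668). Among kinases of the family of Prkdc, 0 of Atm, Atr, Mtor, Smg1 and Trrap were called, with log2 fold changes of -0.15, 0.21, 0.02, -0.21 and -0.01. Whether Prkdc differed from them was not tested by the fit. The rows of Lig1, Lig3, Parp1, Dclre1b and Atr carry the IMP_OVL suffix.

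Upstream of end joining, 3 of 12 genes of break sensing and end protection rose and 6 fell (median log2 fold change -0.22), a share called that is near the 62.4% of all tested genes and is not read as a result about the group. Rnf168, a ubiquitin ligase of break signalling, and H2afx, the histone H2AX, rose (0.79 and 0.63), and Nbn and Mre11a, of the complex that binds broken ends, fell (-1.75 and -0.70; edgeR adjusted p = 1.07e-05, 1.69e-05, 3.06e-09 and 1.55e-05).

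**Figure D4:**
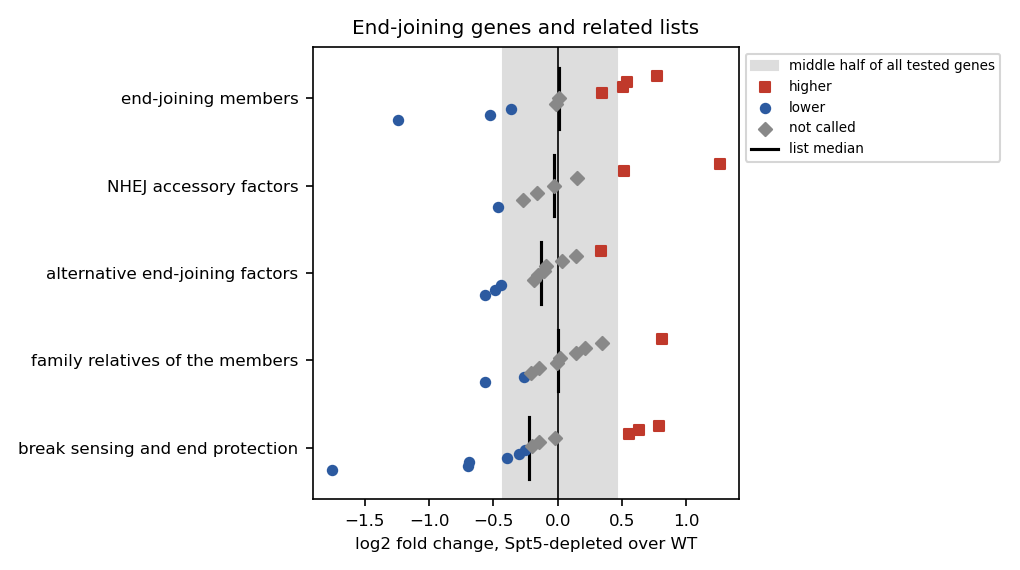
Log2 fold change (Spt5-depleted over WT) of each tested gene of the end-joining members and of 4 related lists, coloured by call at an adjusted p of 0.05, with the list median as a black line over a grey band from the first to the third quartile of all tested genes. Each list holds genes called higher and genes called lower, and the medians run from -0.22 to 0.01.

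The tested gene with the nearest profile to each member was found by the distance between log2 CPM profiles over the 6 libraries, each centred on its own mean. For Xrcc6 it was Timm44 (distance 0.067). For Nhej1 it was Elp6 (0.16), with a log2 fold change of -1.18, and for Lig4 it was Smpdl3a (0.145). For Prkdc it was Ptch1 (0.122), for Xrcc4 Ifi27l2a (0.119) and for Poll Gsk3a (0.053), and for the uncalled Dclre1c and Polm it was H2-Q2 (0.091) and Zbtb12 (0.134). With 6 libraries in 2 groups and 12024 genes, close profiles are plentiful.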

How the data were processed

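The 6 RNA-seq libraries, 3 WT and 3 Spt5-depleted, were used. Per the labels, RNA isolated with Trizol went into poly(A) libraries of the SENSE mRNA-seq kit. The submitters' processing notes name featureCounts 1.5.0-p1, TopHat, Bowtie2 2.1.0, cutadapt 1.10, DESeq2 1.10.1 and build mm9. Annotation and strand setting: not given in the sources used here. In the deposited table are whole read counts per gene, not normalised, for genes with at least 10 counts in all, and the authors' log2 fold change and adjusted p-value, quoted only where that table is named. Columns named KO1 to KO3 were taken as Spt5-depleted replicates 1 to 3 by their numbers.

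The counts were tested with edgeR 4.0.16 under R 4.3.3 (filterByExpr, TMM, robust quasi-likelihood F test, Benjamini-Hochberg over 12024 genes). Standard errors and 95% intervals were computed from the F statistic. TMM takes most genes as unchanged, and no spike-in RNA was there to show a change of total mRNA. Alternatives were other scalings (size factors, library totals, upper quartile), other filters, DESeq2 1.42.0, limma-voom 3.58.1, a replicate block and leaving out each library. Ratios used counts plus 0.5. Libraries of each group differed beyond sampling noise (chi-square per degree of freedom 6.36 to 32.5). The fit and the permutation routine were tested on simulated data.

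The members and the lists of related genes were chosen with earlier results of these data known. Named genes are the 9 members, Supt5, the family relatives, the called genes with the smallest adjusted p of each list (up to 2 per direction) and the gene with the nearest profile to each member; Parp1, Polq and Dntt were named after their values were seen. A few genes under this rule and among the markers are not reported here.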

Additional observations from a re-analysis of the deposited data

How the results depend on the processing

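Across 14 alternatives Xrcc5 and Xrcc6 kept their direction and call (log2 fold changes 0.75 to 0.93 and -0.59 to -0.37), as did Nhej1 in the 13 that tested it (-1.34 to -1.08), since it is below a mean of 5 CPM. Scaling by library totals alone moved the median over all genes from 0.005 to 0.164 (log2) and the share of calls that were higher from 50.9% to 64.8%. Under it Xrcc4 was not called (-0.20), Dclre1c turned to 0.15, 2 alternative end-joining genes and 4 family relatives were higher, and 1 relative was lower. Xrcc5 and Nhej1 then stood at 0.93 and -1.08, still the largest rise and fall among the members. The number of lower relatives was also 1 with upper-quartile factors and with a mean of at least 5 CPM. Leaving out single libraries gave 0.33 to 0.67 for Prkdc, 0.29 to 0.39 for Poll, -0.44 to -0.28 for Xrcc4 and 0.41 to 0.67 for Lig4, each losing its call at least once. It turned the sign of the uncalled Dclre1c (-0.12 to 0.08) and Polm (-0.13 to 0.12); Dclre1c was 0.079, 0.029 and 0.034 without WT replicate 2 and Spt5-depleted replicates 1 and 2, and Polm -0.13 and -0.023 without WT replicate 1 and Spt5-depleted replicate 1. It gave 0 to 1 higher alternative end-joining genes, 1 to 3 higher and 1 to 2 lower relatives. The cause was not tested. With the replicate number as a block, 4 members were higher and 3 lower and no member changed its call (Xrcc5 0.77, Nhej1 -1.23), and the block gave 3755 higher and 3614 lower genes in all. Same-numbered libraries did not deviate together (correlations 0.038, -0.040 and -0.005), so the numbers are not taken to pair the samples. Depth limits Nhej1 and Lig4 most, with 26 to 136 counts per library.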

Other observations

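Several end-joining genes have a close neighbour in the RefSeq annotation of GRCm38.p6, found within 3000 bases after the members' values had been seen. Prkdc rose (log2 fold change 0.51) while its neighbour Mcm4, a subunit of the replicative helicase, fell from 439 ± 24.8 to 334 ± 19.1 CPM (SD, n = 3 each; -0.39 ± 0.09 SE, edgeR adjusted p = 0.00105). Lig4 rose (0.54) and so did its neighbour Abhd13, from 45.2 ± 3.88 to 75.1 ± 2.20 CPM (SD, n = 3 each; 0.73 ± 0.09 SE, edgeR adjusted p = 6.60e-06). Xrcc4 fell (-0.36) while its neighbour Tmem167 was not called (0.18, edgeR adjusted p = 0.095). Xrcc6 fell (-0.53), Snu13, listed as Nhp2l1, rose (0.30, edgeR adjusted p = 0.00935), and Desi1, which overlaps Xrcc6 in the annotation, was not called (-0.14, edgeR adjusted p = 0.145). Poll rose (0.34) and Dpcd was not called (0.12, edgeR adjusted p = 0.367). Slc23a3 beside Nhej1 and Meig1 beside Dclre1c had too few counts to be tested. Whether a member and its neighbour differed was not tested.

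Prkdc and the 5 other tested kinases of its family varied together among libraries of a group, a pattern noticed after the values were seen. All 6 were highest in WT replicate 1 and lowest in WT replicate 3, and 5 of 6, all but Atr, were lowest in Spt5-depleted replicate 1 and highest in replicate 3. This order was not particular to the family, since Rif1 and Rad50 had it in both groups, while H2afx did not. How many of all tested genes had it was not counted. Set against the mean log2 level of the 5 relatives in the same library, Prkdc was at -1.21, -1.16 and -1.47 in WT and at -0.69, -0.80 and -0.71 in depleted libraries. These values were 0.55 higher on average in depleted libraries (-1.28 ± 0.17 and -0.73 ± 0.06, SD, n = 3 each), beside 0.51 for Prkdc alone, and the groups did not overlap.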
